A study of Mus musculus with 13 samples.

Results

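P4-ATPase genes, which encode phospholipid flippases, were read in the full-thickness back skin of mice at postnatal day 4. They are *Atp8a1*, *Atp8b1*, *Atp8b2*, *Atp8b4*, *Atp9a*, *Atp9b*, *Atp10a*, *Atp10d* and *Atp11a*, 9 of the 15 P4-ATPase genes in the files and 9 of 49315 genes in all. The 9 genes were chosen by name with the comparison of the same 6 libraries already known, so their differences between genotypes are described here and not tested. RNA was sequenced from 3 WT mice and from 3 mice labelled DKO, whose genotype is K14Cre+Kctd1 fl/fl Kctd15 fl/fl, with 1 library per mouse. The WT mice were littermates at the same age. Their sex was not given in the sources used here. KCTD1 and KCTD15 are proteins known as regulators of AP-2 transcription factors. K14Cre deletes both genes in keratinocytes and the appendages that these cells form, so the other cells of whole skin keep them. Epidermis of 3-week-old mice, with 3 libraries labelled K14KCTD15KO and 4 labelled K14KCTD1KCTD15KO, held a count of 0 for every gene in the files used here and gave no result.

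P4-ATPases are membrane pumps that use ATP to move phospholipids from the outer to the inner leaflet of a membrane. They keep phosphatidylserine and phosphatidylethanolamine on the inner side of the plasma membrane, and they help to bend membranes where vesicles form. Most of them need a small CDC50 subunit to leave the endoplasmic reticulum. Scramblases undo the asymmetry, and phosphatidylserine that reaches the cell surface is read by receptors that clear dying cells. In skin, keratinocytes and the cells of the hair follicle and sebaceous gland handle large amounts of lipid as they mature.

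All P-type ATPases carry the residues DKTGT, and the aspartate in them is phosphorylated and dephosphorylated in each pumping cycle. The motif was found once in the coding sequence of each of the 15 P4-ATPase genes. The coding DNA around it is shown for 7 of the 9 genes, 5′ to 3′ on the coding strand of GRCm38, to show what the counted transcripts share. Capitals mark the 15 bases of the 5 signature codons.
Atp8a1: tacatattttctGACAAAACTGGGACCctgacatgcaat
Atp8b2: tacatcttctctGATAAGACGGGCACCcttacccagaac
Atp8b4: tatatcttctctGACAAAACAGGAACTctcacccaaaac
Atp9a: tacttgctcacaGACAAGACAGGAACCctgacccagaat
Atp10a: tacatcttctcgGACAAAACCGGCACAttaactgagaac
Atp10d: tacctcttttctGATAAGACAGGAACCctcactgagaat
Atp11a: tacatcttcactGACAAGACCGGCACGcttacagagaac
Although the 5 residues are the same, pairs of these genes matched in 10 to 14 of the 15 signature bases and in 25 to 33 of the 39 bases shown. The signature codons of *Atp8a1* lie in exon 14 of 37, at chr5:67761170-67761184 on the minus strand, and begin at residue 409 of 1164. Those of *Atp9a* are split between exons 12 and 13 of 28. Across whole proteins, translated from the annotated transcripts, *Atp9a* and *Atp9b* were 74.5% identical and *Atp8b2* and *Atp8b4* 69.0%, and the other pairs of the 9 genes fell as low as 30.5%. The closest relative of *Atp8a1* was *Atp8a2*, with 68.1% identity.

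*Atp10d* was annotated as a polymorphic pseudogene in this genome, which was read from the C57BL/6J strain. Its reading frame of 1469 codons has a stop at codon 817, in exon 12 of 23, at chr5:72264471-72264473 on the plus strand. The stop codon is in capitals in the 39 bases around it, shown because counts of *Atp10d* measure a transcript that this reference does not read through.
Atp10d: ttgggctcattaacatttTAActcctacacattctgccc
Which allele the mice carried was not read, since the files hold counts per gene.

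The 6 libraries held between 11263863 and 17643043 counts on genes. A count of 3, taken as the floor, corresponds to 0.17 to 0.266 counts per 1e6 counts (CPM), which covers counting error only. Normalized counts are counts scaled to the mean of the libraries' effective sizes. All 9 genes passed the filter on low counts that left 20168 genes for the fit in edgeR. Calls needed a log2 fold change over 1 in size and an adjusted p-value under 0.05, and edgeR called 14 genes, or 0.0694% of those tested. DESeq2 called 152 genes, or 0.827% of the 18389 to which it gave an adjusted p-value. The targeted genes *Kctd1* and *Kctd15* were higher in each DKO library than in each WT library by counts per gene, with log2 fold changes of 0.78 and 0.83 (adjusted p = 0.342 and 0.107, edgeR). Such counts cannot show the loss of 1 exon, so every direction below rests on the labels. The study's methods report that RNA-Seq showed the targeted exons removed, in epidermal sheets of mice lacking either gene and in DKO mice. That removal was not read here.

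*Atp8a1* was the 1 gene of the 9 whose libraries did not overlap between genotypes. The enzyme flips phosphatidylserine and phosphatidylethanolamine at the plasma membrane and in recycling endosomes. Its normalized counts were 1631, 1538 and 1772 in WT skin and 697, 828 and 908 in DKO skin. The lowest WT mouse lay well above the highest DKO mouse, and DKO replicate 1 was the lowest of all. The means were 1647 ± 118 in WT and 811 ± 107 in DKO (SD, n = 3), a ratio of 0.492 and a log2 fold change of -1.02 (standard error 0.140). *Atp8a1* was 1 of the 14 genes past the thresholds in edgeR and was past them in DESeq2, which describes the values it was chosen with and is not evidence apart from them. In whole skin, fewer cells of a type and less RNA per cell cannot be told apart.

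**Figure D1:**
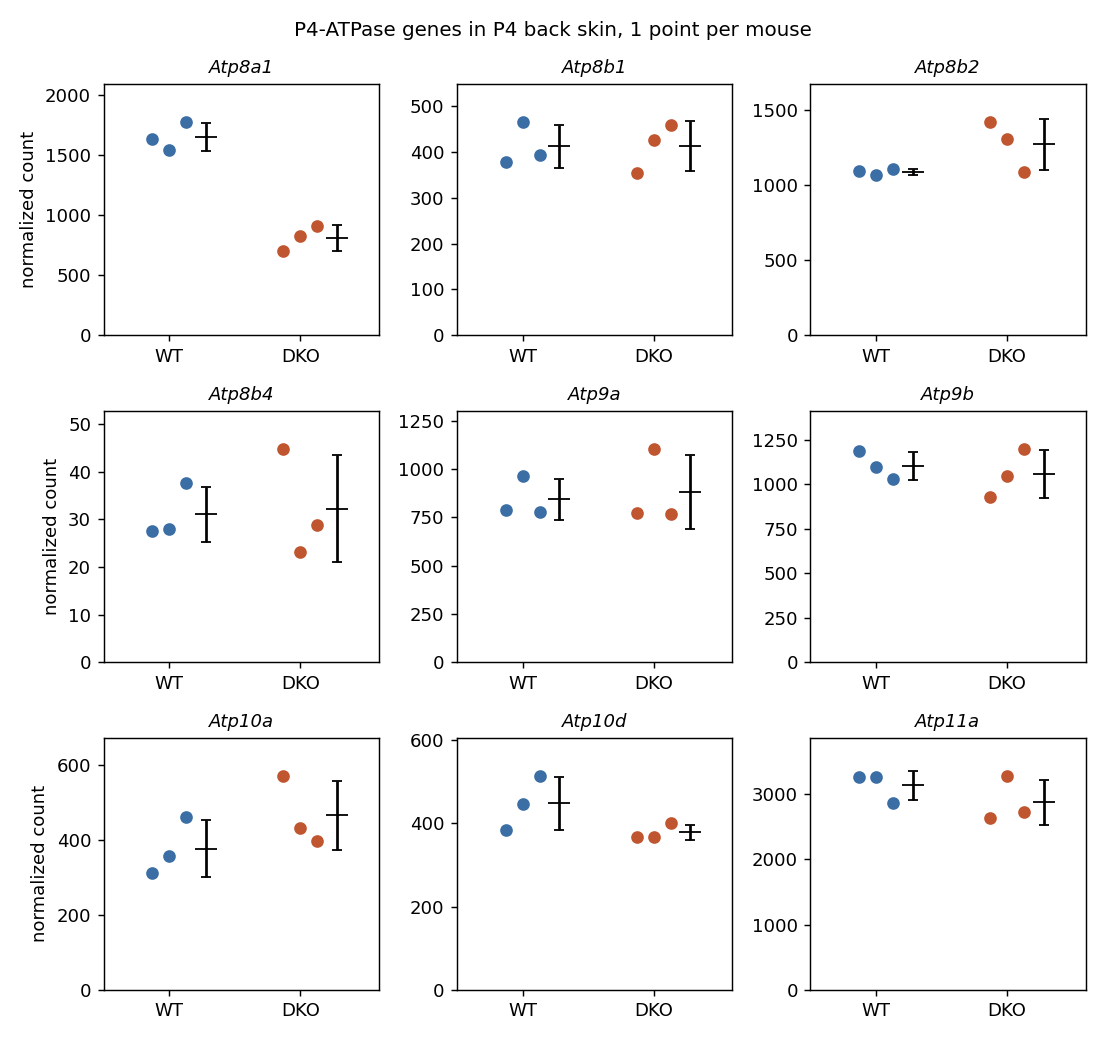
Normalized counts of the 9 P4-ATPase genes in skin at postnatal day 4, with 1 point per mouse (blue WT, orange DKO), each panel on its own axis from 0, and bars for the mean ± SD of 3 mice. Only *Atp8a1* has WT and DKO points that do not overlap, with WT between 1538 and 1772 and DKO between 697 and 908.

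*Atp11a*, a second phosphatidylserine and phosphatidylethanolamine flippase of the plasma membrane, was the most abundant of the 9. Its normalized counts were 3274, 3267 and 2875 in WT skin and 2636, 3277 and 2725 in DKO skin. The groups overlapped, since DKO replicate 2 was as high as the highest WT mice. The log2 fold change was -0.12 (standard error 0.131).

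The ATP8B enzymes include *Atp8b1*, the gene mutated in a familial cholestasis, and *Atp8b2*, which flips phosphatidylcholine at the plasma membrane. *Atp8b1* had 378, 465 and 394 normalized counts in WT and 354, 426 and 459 in DKO, with overlapping groups and a log2 fold change of 0.00 (standard error 0.158). *Atp8b2* had 1092, 1069 and 1110 in WT and 1421, 1308 and 1087 in DKO. DKO replicates 1 and 2 lay above every WT mouse, while DKO replicate 3 lay within their range, and the log2 fold change was 0.22 (standard error 0.135). *Atp8b4* was scarce, with 27, 33 and 44 counts in WT skin against 34, 21 and 29 in DKO skin before normalization. Its log2 fold change of 0.04 had the widest standard error of the 9, 0.340, so that a change of the size seen in *Atp8a1* would be about 3 standard errors here.

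The 2 ATP9 enzymes work without a CDC50 subunit in the trans-Golgi network and endosomes. *Atp9a* had 787, 964 and 778 normalized counts in WT and 776, 1103 and 769 in DKO. In each genotype replicate 2 was the high mouse, and the other values of both groups lay between 769 and 787. For *Atp9b* the values were 1186, 1100 and 1028 in WT and 931, 1046 and 1198 in DKO, with the highest and the lowest mouse both DKO. The log2 fold changes were 0.07 (standard error 0.175) and -0.06 (standard error 0.138).

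The ATP10 enzymes flip phosphatidylcholine or, in the case of ATP10D, glucosylceramide. *Atp10a* had 312, 358 and 461 normalized counts in WT and 571, 431 and 397 in DKO. DKO replicate 1 was the highest, the other DKO mice lay between the WT mice, and the log2 fold change of 0.30 was the highest of the 9 (standard error 0.196). *Atp10d* had 385, 447 and 513 in WT and 368, 368 and 400 in DKO. Only DKO replicate 3 reached into the WT range, and the log2 fold change was -0.24 (standard error 0.152).

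Among the 9 genes, 5 had a log2 fold change above 0 and 4 below, with a median of 0.00, against 10670 above and 9498 below with a median of 0.02 over all genes tested. The groups did not overlap in 1 of 9 toward lower and 0 of 9 toward higher in DKO. Over all genes tested those shares were 5.96% and 7.24%. These counts describe genes chosen with the comparison known, and nothing is read from them.

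**Figure D2:**
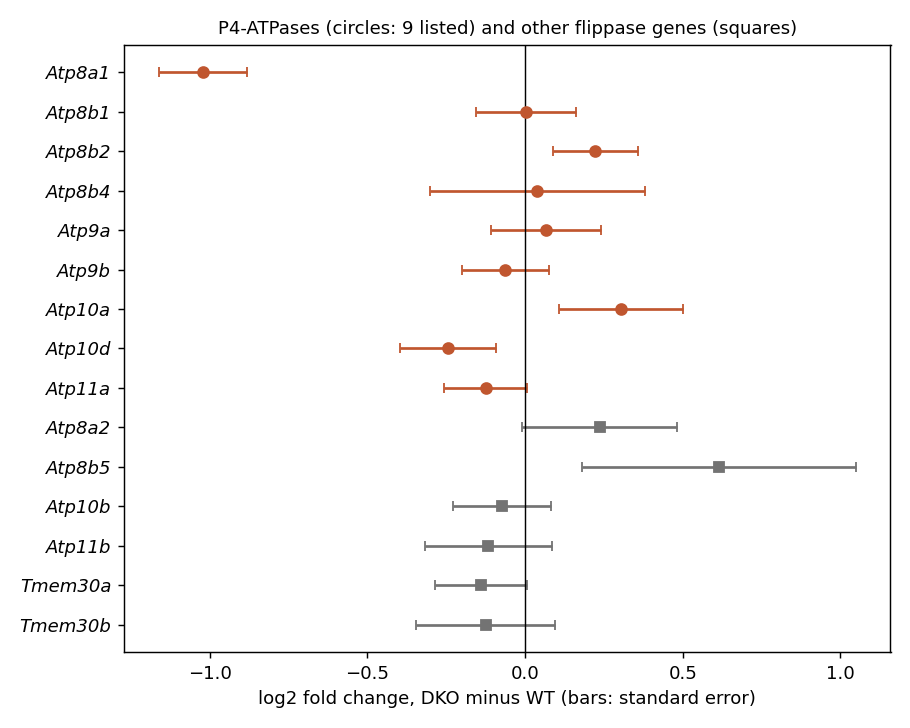
Log2 fold change, DKO minus WT, with its standard error from the edgeR fit, for the 9 P4-ATPase genes (circles) and for *Atp8a2*, *Atp8b5*, *Atp10b*, *Atp11b*, *Tmem30a* and *Tmem30b* (squares). *Atp8a1* stands at -1.02, and the other 8 circles lie between -0.24 and 0.30.

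Levels of different genes were compared per length, in TPM (transcript counts scaled by length and then to the same total in each library) computed from the counts and the counted gene lengths. In WT skin the order was *Atp11a* at 56.7 ± 4.34 TPM, *Atp9b* at 41.2 ± 2.64, *Atp9a* at 28.7 ± 4.11, *Atp8b2* at 25.6 ± 0.424 and *Atp8a1* at 23.2 ± 1.51 (SD, n = 3). *Atp10a* at 13.6 ± 2.80, *Atp8b1* at 12.9 ± 1.70 and *Atp10d* at 11.5 ± 1.73 TPM followed, and *Atp8b4* was last at 0.939 ± 0.172. *Atp9a* and *Atp8b2* were closer to each other than the spread of *Atp9a*, and *Atp10a*, *Atp8b1* and *Atp10d* did not differ from one another beyond their spread. In DKO skin *Atp8a1* had 11.3 ± 1.63 TPM and moved from rank 5 to rank 7, where its mice overlapped those of *Atp8b1* (12.8 ± 1.74) and *Atp10d* (9.69 ± 1.33). *Atp11a* (51.3 ± 0.759) stayed first and *Atp9b* (39.2 ± 6.24) second, and *Atp9a* (29.4 ± 2.77) and *Atp8b2* (29.8 ± 5.87) were level. On this scale the *Atp8b2* groups just missed each other, with a highest WT value of 26.1 and a lowest DKO value of 26.3 TPM, while its normalized counts overlapped.

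**Figure D3:**
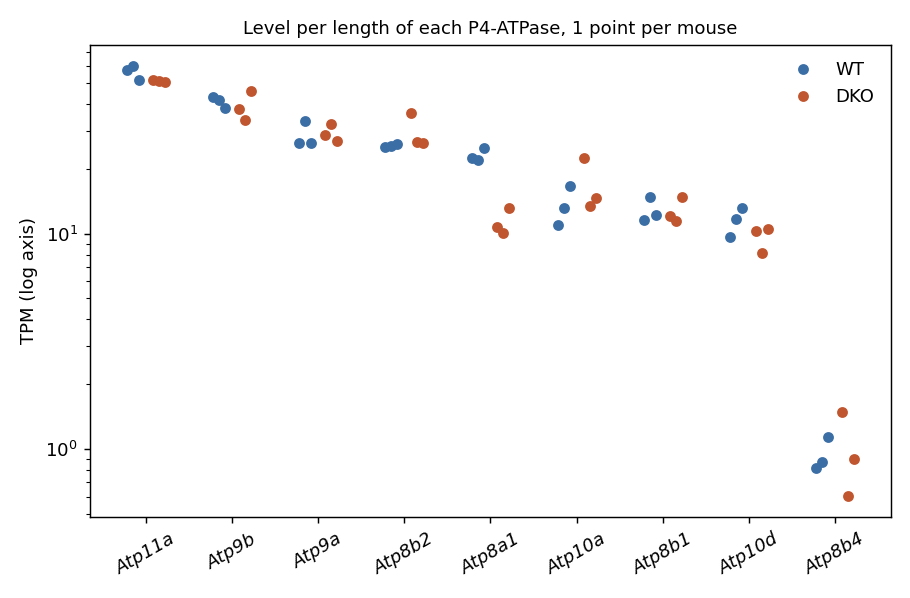
TPM of the 9 P4-ATPase genes on a log axis, with 1 point per mouse (blue WT, orange DKO) and genes ordered by their WT mean. *Atp11a* leads at 56.7 TPM in WT and *Atp8b4* is last at 0.939, and the DKO points of *Atp8a1* sit between 10.1 and 13.2 TPM, below its WT points.

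The 9 genes summed to 214 ± 8.22 TPM in WT and 202 ± 12.9 in DKO (SD, n = 3). They made up 67.6% of the summed TPM of all 15 P4-ATPases in WT and 68.9% in DKO. *Atp8a1* alone was 7.33% ± 0.701 of the family in WT and 3.87% ± 0.446 in DKO, so its share moved with its level while the sum of the 9 overlapped between genotypes. Sums of this kind depend on the length used. The counted length of *Atp8a1*, 14278 bases over all its exons, exceeds its longest coding transcript of 8178 bases. The transcript length was then put in place of the counted length for the 9 genes alone, without rescaling to the same total. The values are thus not TPM, and they are compared only with one another. *Atp8a1* had 40.5 in WT and 19.8 in DKO and ranked 4 and 5. *Atp11a* was first on this scale too, while *Atp9a* (45.6 and 46.7) took rank 2 in both genotypes. *Atp9b* (41.5 and 39.5) ranked 3 in WT and 4 in DKO.

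Of the other 6 P4-ATPases, 5 had enough counts for a test, and edgeR called 0 of them. *Atp11b*, a relative of *Atp11a* that works in endosomes, had 2799, 2580 and 2424 normalized counts in WT and 2516, 1637 and 3043 in DKO. DKO replicate 2 was the lowest mouse and DKO replicate 3 the highest, and the adjusted p-value was 0.957 in edgeR. *Atp10b*, *Atp8a2* and *Atp8b5* had log2 fold changes of -0.07, 0.24 and 0.61, the last on 9 to 21 counts per library. *Atp8a2*, the closest relative of *Atp8a1*, stood at 1.37 TPM in WT and 1.62 in DKO. *Atp8b3* had 0, 0 and 1 counts in WT skin, against 3, 1 and 3 in DKO skin, and was not tested.

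The CDC50 subunits carry most flippases out of the endoplasmic reticulum. *Tmem30a*, which encodes CDC50A, the partner of ATP8A1, had 1651, 1675 and 1812 normalized counts in WT and 1742, 1266 and 1657 in DKO. Apart from DKO replicate 2, the DKO mice lay within the WT range, and the log2 fold change was -0.14 (standard error 0.145, adjusted p = 0.933, edgeR). *Tmem30b* had a log2 fold change of -0.13 with overlapping groups, and *Tmem30c*, with 1 to 9 counts per library, was not tested. Partners of ATP9A in endosomal sorting were a list of 4 genes, *Mon2*, *Dop1a*, *Dop1b* and *Snx3*. All 4 had log2 fold changes below 0, from -0.21 for *Dop1a* to -0.03 for *Snx3*, and 0 passed in edgeR, where the smallest adjusted p-value was 0.825.

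Further genes of phospholipid transport were read from lists. Among 20 tested genes of a list of scramblases and related genes, 13 were above 0 and 7 below, and 0 were called by edgeR. The 3 with the largest differences in value were *Plscr4* (0.40), *Ano5* (0.33) and the bridge-like lipid transporter gene *Vps13a* (-0.33), which had the smallest adjusted p-value of the list, 0.751 in edgeR. The calcium-activated scramblase gene *Ano6* and the apoptotic scramblase gene *Xkr8* had log2 fold changes of 0.15 and 0.31 and were named here after their values were seen. Of 7 ABC exporter genes 4 were above 0, with *Abcb4*, *Abcb1a* and *Abca3* at 0.46, -0.31 and -0.15. Of 9 genes of phospholipid synthesis 5 were above 0, with *Pemt*, *Pisd* and *Cept1* at 0.37, -0.19 and -0.12. In neither list was any gene called by edgeR or DESeq2 or under an unadjusted p-value of 0.05.

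Receptors and bridging proteins for exposed phosphatidylserine formed a list of 15 genes, of which 13 were tested. Of these, 11 were above 0 and 2 below, with a median log2 fold change of 0.17, and 1 was called. Over all genes tested, 10670 were above 0 and 9498 below, with a median of 0.02, and edgeR called 0.0694%. The list was chosen with earlier results of these data known. Its counts and the call are therefore descriptions and not evidence apart from those results. *Adgrb1* encodes BAI1, a phosphatidylserine receptor for the uptake of apoptotic cells. It rose from 11.2, 11.9 and 21.4 normalized counts in WT to 73.6, 140 and 103 in DKO. Every DKO mouse lay above every WT mouse, on 11 to 25 counts in WT and 56 to 127 in DKO before normalization. The log2 fold change was 2.81 (standard error 0.358, adjusted p = 0.0315 in edgeR and 5.36e-09 in DESeq2). *Adgrb1* lost its call in edgeR without WT replicate 1, 2 or 3 or DKO replicate 3, with an adjusted p-value of up to 0.249, while its log2 fold change stayed between 2.56 and 3.16 over all settings. *Timd4* and *Stab2*, with 0.64 and 0.36, had the next largest differences and did not pass. *Axl* and *Pros1* had log2 fold changes of 0.26 and 0.22 (adjusted p = 0.741 and 0.859, edgeR). Over all the lipid lists 60 of 65 genes were tested, 35 were above 0 and 25 below, with a median of 0.02, and *Adgrb1* was the 1 gene called. The groups did not overlap in 3 of the 60 toward higher, *Adgrb1*, *Axl* and *Pros1*, and in 3 toward lower, *Mon2*, *Dop1a* and *Vps13a*, beside 7.24% and 5.96% of all genes tested.

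Markers of the cell types that make up skin were summed in TPM beside *Atp8a1*. The hair follicle list, led by *Krt71*, *Krt25* and *Tchh*, had 14357, 14619 and 12856 TPM in WT and 5699, 10692 and 9412 in DKO. All 9 of its genes tested were lower in value, with a median log2 fold change of -0.53, and *Krt85* was not matched. The sebaceous list, led by *Scd1*, *Krt79* and *Soat1*, had 1710, 1901 and 1566 TPM in WT and 735, 1162 and 950 in DKO, with 9 of 10 genes lower and a median of -1.06. The keratinocyte list, led by *Krt10*, *Krt1* and *Krt5*, lay between 8463 and 9097 TPM in WT and between 11117 and 12617 in DKO, with 8 of 9 genes higher. The skeletal muscle list, led by *Acta1*, *Mylpf* and *Atp2a1*, had 2583, 2351 and 2519 TPM in WT and 8314, 3810 and 4030 in DKO, with 18 of 18 genes higher and DKO replicate 1 far above the rest. A neural list was also higher in each DKO mouse, and the other 10 lists overlapped between genotypes. Of the markers listed, *Ly6g* of neutrophils and *Fcer1a* of mast cells were at 0 in all 6 libraries.

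Set against the marker sums, *Atp8a1* overlapped between genotypes for 3 of the 15 lists. Per 1000 TPM of the hair follicle list it stood at 1.57, 1.51 and 1.94 TPM in WT and 1.89, 0.944 and 1.40 in DKO. Per 1000 TPM of the sebaceous list it stood at 13.2, 11.6 and 15.9 in WT and 14.6, 8.68 and 13.9 in DKO. DKO replicate 1, with the fewest follicle and sebaceous transcripts, lay within the WT range on both scales, and DKO replicate 2 was the lowest. The erythroid list was the third, with 55.2, 41.7 and 49.0 in WT and 20.3, 19.6 and 63.7 in DKO. That overlap came from DKO replicate 3 alone, whose erythroid sum of 207 TPM was the lowest of the 6 libraries. Against the other 12 lists each DKO mouse was lower, as per 1000 TPM of the keratinocyte list, with 2.67, 2.45 and 2.74 in WT and 0.870, 0.800 and 1.19 in DKO. *Atp8a1* was chosen with its lower level known, so a list with a steady or higher sum in DKO gives lower values by arithmetic. The split into 3 and 12 lists is therefore a description, and nothing is read from it. The part of these cell types in the level of *Atp8a1* was not tested. With library sizes computed without the skeletal muscle markers, the log2 fold change of *Atp8a1* was -1.04. Only the listed markers were left out, so this setting cannot show the effect of other muscle RNA.

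**Figure D4:**
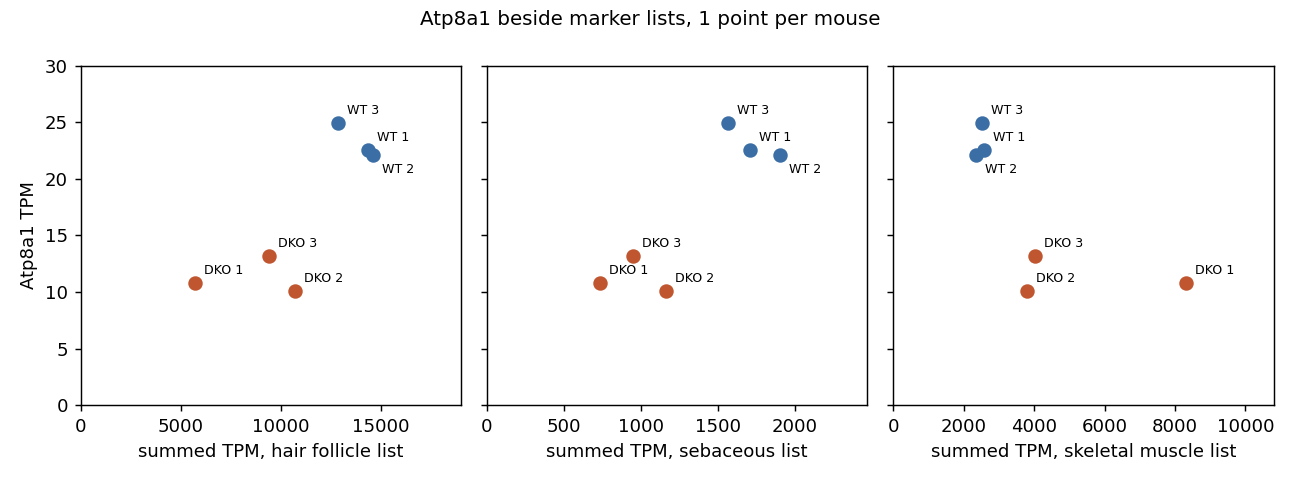
*Atp8a1* in TPM against the summed TPM of the hair follicle, sebaceous and skeletal muscle marker lists, with 1 point per mouse (blue WT, orange DKO) and all axes from 0. WT mice lie at the upper right in the first 2 panels and DKO mice at the lower left, and DKO replicate 1 stands apart at 8314 TPM in the muscle panel.

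The 9 genes lie at separate loci and on both strands. *Atp8a1* covers 5:67618140-67847434 on the minus strand of GRCm38, and *Atp10d* lies on the same chromosome at 5:72203329-72298775. *Atp8b4* and *Atp9a* are on chromosome 2, *Atp8b2* on 3, *Atp10a* on 7, *Atp11a* on 8, and *Atp8b1* and *Atp9b* on 18. Every tested gene that overlaps the *Atp8a1* locus had a log2 fold change below 0. The 4 on its strand are unclassified single-exon genes with no base in its exons, *Gm42735*, *Gm42737*, *D630030B08Rik* and *Gm42466*, with log2 fold changes of -0.89, -0.64, -0.89 and -1.44. *Gm42735* had 49, 71 and 53 counts in WT skin and 11, 30 and 35 in DKO skin. For *Gm42466* these were 29, 35 and 37 against 15, 6 and 8. In both, as in *D630030B08Rik*, the groups did not overlap, which held toward lower in DKO for 5.96% of all genes tested. None of the 4 passed in edgeR, where their smallest adjusted p-value was 0.377. Reads of these genes and of unspliced *Atp8a1* transcripts cannot be told apart in these counts. On the opposite strand *Gm15478* and *Shisa3* had -0.23 and -0.29 with overlapping groups. The whole span of *Shisa3*, introns included, covers 4557 bases of *Atp8a1* exons, and the bases shared exon with exon were not counted. *Shisa3* had 20 to 45 counts per library against 530 to 2071 for *Atp8a1*.

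Within 1 Mb of the locus, 16 other genes were tested, 7 above 0 and 9 below, with log2 fold changes from -1.44 to 1.10 and a median of -0.08. The 6 overlapping genes are among them. None of the 16 was called by edgeR. The groups did not overlap in 4 of the 16, beside 5.96% toward lower and 7.24% toward higher over all genes tested. These were *Gm42735*, *D630030B08Rik* and *Gm42466* toward lower and *Limch1* toward higher, with a log2 fold change of 0.52.

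Since KCTD1 and KCTD15 act on AP-2 factors, promoters were searched for the AP-2 motif GCCNNNGGC, which reads the same on both strands. The RefSeq promoter table, on GRCm38.p6, held 10 windows for 6 of the 9 genes. Each window runs from 250 bases before a transcription start to 50 after it. At least 1 match was found in 5 of the 10 windows and 4 of the 6 genes, *Atp8a1*, *Atp8b2*, *Atp9a* and *Atp11a*. *Atp8b4* and *Atp10a* had no match. Of the 32851 windows of all genes 16.6% held the motif, as did 18.5% of 27025 genes. The 5 windows with a match held 66.0% to 88.7% G and C, and the other windows of these genes 47.3% to 65.7%. Shares over windows of like G and C content were not computed. Of the genes with a match, *Atp8b2*, *Atp9a* and *Atp11a* had normalized counts that overlapped between genotypes, and *Atp8a1* did not. The part of AP-2 factors in these values was not tested.

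The 250 bases before the start of *Atp8a1*, at chr5:67847432-67847681 on the minus strand, are shown as the promoter of the gene that differed, with the motif in capitals. The match lies 48 bases before the start, in a window of 70.3% G and C.
Atp8a1: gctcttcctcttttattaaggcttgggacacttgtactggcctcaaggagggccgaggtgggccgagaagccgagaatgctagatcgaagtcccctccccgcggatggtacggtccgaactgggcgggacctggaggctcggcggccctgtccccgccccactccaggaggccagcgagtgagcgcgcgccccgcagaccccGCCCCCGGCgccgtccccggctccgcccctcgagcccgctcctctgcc
A match is a description of the letters in the window and says nothing of binding in these cells.

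Genes whose log2 CPM was most like that of each P4-ATPase over the 6 libraries were found among 12329 genes with a mean normalized count of at least 100. For *Atp8a1* they were *Gm5538*, *Rnaset2b* and *4930449A18Rik*, with Pearson's r of 0.994, 0.991 and 0.991. *Atp11a* was most like *Faah*, *Fubp3* and *Sptan1* (0.985, 0.985 and 0.982). In the ATP8B group *Atp8b1* was most like *Tango6*, *Mrm3* and *Ppp2r5c* (0.992, 0.990 and 0.985), *Atp8b2* like *Elf4*, *Pnpla2* and *Idh3g* (0.996, 0.996 and 0.994), and *Atp8b4* like *Lmbr1*, *Fkbp14* and *Anxa5* (0.996, 0.995 and 0.993). In the ATP9 group *Atp9a* was most like *Timm17b*, *Polr3e* and *Spata2* (0.996, 0.992 and 0.991), and *Atp9b* like *Nfe2l3*, *Vps39* and *4932422M17Rik* (0.998, 0.995 and 0.994). *Atp10a* was most like *Thsd4*, *Igfbp3* and *Wnk1* (0.996, 0.994 and 0.994), and *Atp10d*, with the lowest values, like *Rwdd1*, *Gm26603* and *Gm37802* (0.968, 0.962 and 0.951). These values are descriptions over 6 points that share the genotype difference and the make-up of the skin, taken as the highest of many. Among the 9 genes themselves *Atp8a1* had r from -0.79 with *Atp8b2* to 0.74 with *Atp10d*.

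The call of *Atp8a1* depended on the mice included. Its log2 fold change lay between -1.11 (without DKO replicate 3) and -0.94 (without DKO replicate 1) when each mouse was left out in turn. Other settings gave -1.06 to -1.03. It was called under each of the other settings, and of the fits with 1 mouse left out it was called only without DKO replicate 2.

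**Figure D5:**
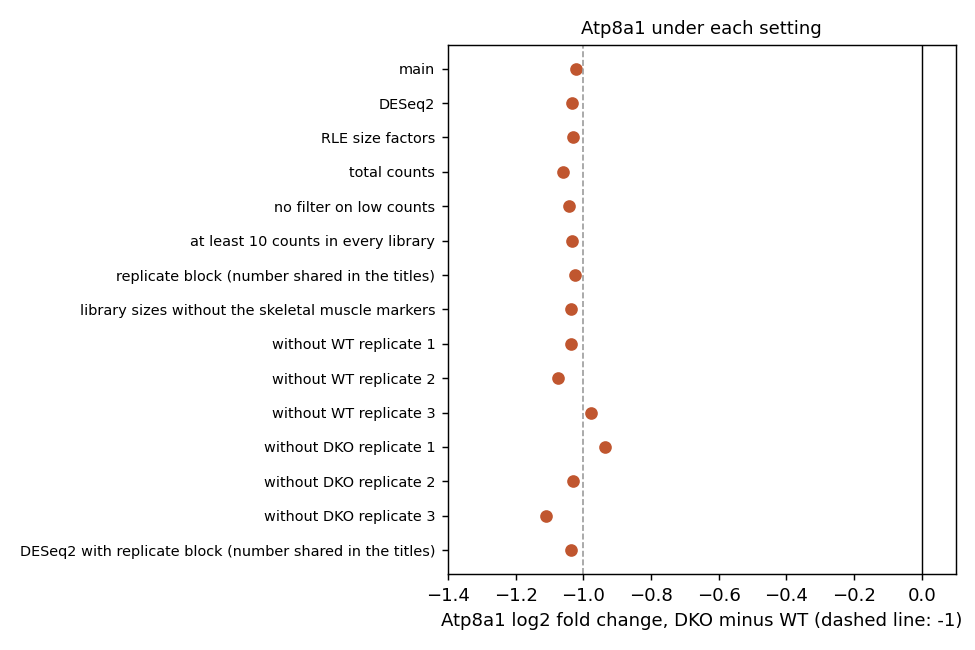
Log2 fold change of *Atp8a1*, DKO minus WT, under the reported setting (main) and each alternative. The points lie between -1.11 and -0.94, on both sides of the dashed line at -1, which is the threshold on the fold change.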

How the data were processed

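RNA from whole back skin at postnatal day 4 was depleted of rRNA, made into libraries with the NEBNext Ultra II kit and sequenced as paired-end reads. The authors used Trimmomatic 0.36 to trim reads and STAR 2.5.2b to map them. They counted reads on genes with featureCounts of Subread 1.5.2, as the submitters' processing notes and the study's methods state. The study's methods name the mouse genome GRCm38, while the submitters' notes list both GRCh38 and GRCm38. The deposited values are raw counts per gene. Strand use and the handling of reads that map to several genes are not given in the sources used here, so reads of near-identical relatives or of overlapping genes could be divided. Symbols were found for 48970 identifiers (99.3%).

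Samples were grouped by their labels, with replicates numbered in accession order. The fit used edgeR 4.0.16 in R 4.3.3 (filterByExpr, TMM, the quasi-likelihood F test, p-values adjusted by Benjamini-Hochberg over 20168 genes, biological coefficient of variation 20.0%), checked first on simulated data. DESeq2 1.42.0, which the study's methods name, was an alternative, and the others are given in the closing section. With 3 mice against 3, an exact permutation test cannot give a p-value below 0.1. Proteins were translated from GENCODE M21 transcripts for lengths and identities, and the RefSeq protein table was not used here.

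The P4-ATPase genes and all lists were chosen with earlier results of these data known. The genes named are the 9, the other P4-ATPases (1 is not reported here) and 3 CDC50 genes, the 3 largest absolute fold changes and every called gene of each further list, the 3 genes most like each of the 9, *Kctd1*, *Kctd15* and the 3 most abundant markers of a named list. *Snx3*, *Ano6*, *Xkr8*, *Axl*, *Pros1*, *Limch1* and the genes at the *Atp8a1* locus were named outside this rule, after their values were seen. The libraries of epidermis were not analysed here beyond their count of 0.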

Additional observations from a re-analysis of the deposited data

How the results depend on the processing

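The log2 fold changes of all 9 genes moved by less than the spread between replicates under the 14 alternatives. *Atp8b1* crossed 0 in 12 of them, *Atp8b4* in 3, *Atp9a* in 2 and *Atp9b* in 1. The number of genes called, 14 in edgeR, was 152 with DESeq2, 22 with total counts in place of TMM, 210 with no filter on low counts, and 2 to 36 in the fits that each left out a mouse, the lowest without WT replicate 2 or 3 and the highest without DKO replicate 1. It was 16 with RLE size factors, 12 with at least 10 counts in every library and 21 with library sizes without the skeletal muscle markers. The count of other lipid genes called, 1, was 0 to 1 in those fits. *Atp8a1* lost its call without WT replicate 1, 2 or 3 or DKO replicate 1 or 3. Without WT replicate 3 (-0.98) or DKO replicate 1 (-0.94) its log2 fold change was under 1 in size, the threshold. Without WT replicate 1 (-1.04), WT replicate 2 (-1.08) or DKO replicate 3 (-1.11) it was over 1 in size, so there the adjusted p-value missed its threshold. The summed level of the 9 genes in WT, 214 TPM, was 279 TPM over protein-coding genes with counts in every library. With the length of the longest coding transcript, an alternative chosen after seeing the data, it was 292. That value was not rescaled to the same total, so it is not TPM.

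Mice of both genotypes share a number in their titles that the labels do not explain. With it as a replicate block edgeR called 35 genes, 15 higher and 20 lower, against 8 and 6 without it, and DESeq2 with the block, chosen after seeing the data, called 150. The block left *Atp8a1* and *Adgrb1* called. Deviations of mice with the same number correlated at -0.02 to 0.23 and those with different numbers at -0.15 to -0.10. Deviations sum to 0 within each genotype, so these values are tied to one another. The highest, 0.23, was the pair of WT replicate 3 and DKO replicate 1, and it draws the pairs with different numbers below 0. Nothing is read from the contrast. Within the numbers the log2 ratio of *Atp8a1* was -1.35 (1 mouse against 1) and -0.87 (2 against 2). Depth limits *Atp8b4*, *Atp8b5* and *Atp8b3*, which rest on few counts.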
